A study of Mus musculus with 13 samples.

Results

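The core circadian clock is described here through 10 genes, Arntl, Clock, Npas2, Per1, Per2, Per3, Cry1, Cry2, Nr1d1 and Nr1d2, in mouse liver. They were taken by name from the gene annotation of the arrays, where they are represented by 13 probes, out of 29983 genes or unnamed transcripts with 39429 probes. All livers came from female C57BL6 mice of 12 weeks, and each of the 13 one-colour Agilent arrays holds the RNA of one labelled biological replicate. In 5 samples the mice were on the HFHS diet with vehicle, a high-fat diet whose composition is not given in the sources used here. In 5 samples they were on the standard diet (ST) with a mixture of 4 pollutants that the labels do not name, and in 3 samples on the standard diet with vehicle. The series text can also be read as placing the mixture in the high-fat diet, but each pollutant sample carries the ST label, and the labels were followed.

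The clock of a mammalian cell is a feedback loop of transcription. ARNTL (also called BMAL1) pairs with CLOCK, or with the related NPAS2, and switches on the Per, Cry and Nr1d genes through E-box sequences. The PER and CRY proteins then block that pair, while NR1D1 and NR1D2 (REV-ERB alpha and beta) repress Arntl and Clock through ROR elements. In the liver of nocturnal rodents the loop runs with the cycle of light and feeding, so that Arntl and Per2 peak at nearly opposite times of day and Nr1d1 peaks before Per2. The level of a clock gene therefore depends on when the tissue was taken. The hour of collection is not given in the sources used here, and its part in the differences below was not tested.

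The elements through which the loop acts can be read in the promoters of several of the genes. RefSeq promoter windows (mouse build GRCm38.p6, 250 bases before to 50 after a start site) were found for 9 of the 10 genes, 13 windows in all; none was used for Per2. Motifs were searched on both strands. The E-box CACGTG is in 7.15% of the 32851 windows of the mouse table, and the related form CACGTT, which reads AACGTG on the other strand, is in 4.68%. The D-box TTATGTAA, which reads TTACATAA on the other strand and is bound by DBP, TEF and HLF, is in 0.938%. The ROR element TAGGTCA, with TGACCTA on the other strand, is in 2.61%. None of these motifs overlaps another in the sites printed here. A match is a run of letters and not a shown site of binding, and the windows of Clock, Npas2 and Nr1d2 held none of the 4. The matches in the genes measured below are shown in 30 bases each, 5′ to 3′ along the gene, with the motif in capitals. The Arntl match begins at base 31 of the transcript, the Per1 match lies at position -166 from the start, those of Per3 at -205 and -158, that of Cry2 at -166 and that of Nr1d1 at -28.
Arntl, ROR element, chr7:113207529-113207558, plus strand: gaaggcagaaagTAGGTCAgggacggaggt
Per1, E-box, chr11:69098771-69098800, plus strand: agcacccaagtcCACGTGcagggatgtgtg
Per3, D-box, chr4:151044852-151044881, minus strand: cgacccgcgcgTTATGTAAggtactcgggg
Per3, D-box, chr4:151044805-151044834, minus strand: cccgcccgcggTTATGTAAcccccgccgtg
Cry2, related E-box, chr2:92434218-92434247, minus strand: acacatggtgggAACGTGagggggcggagc
Nr1d1, related E-box, chr11:98775388-98775417, minus strand: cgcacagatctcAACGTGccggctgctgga

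The 250 bases upstream of a start site are given whole for Per1 and Per3, the 2 of these genes whose motif is a canonical E-box or D-box and which were measured above background. The capitals again mark the motifs. A second Per1 start site in the table, further downstream, had none of the 4 motifs in its window.
Per1, chr11:69098699-69098948, plus strand: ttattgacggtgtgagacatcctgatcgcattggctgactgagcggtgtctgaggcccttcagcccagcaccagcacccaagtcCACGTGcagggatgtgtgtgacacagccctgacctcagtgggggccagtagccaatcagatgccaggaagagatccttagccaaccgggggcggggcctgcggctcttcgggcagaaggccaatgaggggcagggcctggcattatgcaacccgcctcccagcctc
Per3, chr4:151044666-151044915, minus strand: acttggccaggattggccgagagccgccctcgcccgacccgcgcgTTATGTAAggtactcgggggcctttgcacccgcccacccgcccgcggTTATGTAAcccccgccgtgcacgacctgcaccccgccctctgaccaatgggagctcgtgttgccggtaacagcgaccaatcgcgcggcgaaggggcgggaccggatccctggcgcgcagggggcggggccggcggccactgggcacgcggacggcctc

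Levels are log2 intensities relative to the 75th percentile of the same array, so 0 is that percentile; a level is that of a probe, and levels of different probes are not compared. The correlation across genes was 0.977 to 0.992 between arrays of one group and 0.973 to 0.992 between groups. The mean of 8 hepatocyte markers, such as Alb and Ttr, was 5.87 to 6.20 in HFHS, 6.05 to 6.29 in pollutant and 6.12 to 6.23 in ST vehicle livers. Markers of pancreatic acinar cells (10 measured of 11) averaged -2.89, -3.07, 4.70, 3.48 and 6.88 on HFHS replicates 1 to 5, against -3.38 to -1.79 on the pollutant and -3.20 to -2.68 on the ST vehicle arrays. HFHS replicates 3, 4 and 5 thus stand apart, and results are given without them where they matter. Erythroid markers (3 measured of 4) were at 4.85 to 5.33 in pollutant livers, without overlap with the 4.18 to 4.66 of ST vehicle livers, and at 4.44 to 5.05 in HFHS livers. Cholangiocyte markers (3 measured of 4) were at -3.76 to -3.24 in HFHS livers, below the -3.09 to -2.71 of ST vehicle livers, and at -3.62 to -2.78 in pollutant livers. The part of either list in the clock results was not tested. In bulk liver, fewer cells of a type and less RNA per cell cannot be told apart.

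Of the 10 genes, 8 were measured in a way that allowed a test. The Cry1 probe was well above background on 0 of the 13 arrays (intensities 5.84 to 29.2), and the Npas2 probe on 2 of 13, pollutant replicate 1 and ST vehicle replicate 3 (intensities 10.2 to 49.1 over all arrays). For Cry1, a repressor of the late part of the loop, and for Npas2, the stand-in for CLOCK, no difference is given. The other 8 were well above background on all arrays. In a limma model of the 3 groups with Benjamini-Hochberg adjustment over 19515 genes, with the call set at 0.05, 5 of the 8 changed in pollutant against ST vehicle livers. Per1, Per2 and Per3 were higher and Arntl and Clock lower, where 0.984% of all genes tested were called (0.543% higher and 0.441% lower). In HFHS against ST vehicle livers 2 of the 8 changed, Per2 higher and Arntl lower, where 0.687% of all genes were called (0.236% higher and 0.451% lower). Between HFHS and pollutant livers 1 of the 8 changed, Per1, which was lower in HFHS livers, where 3.87% of all genes were called (1.57% higher and 2.3% lower). At an unadjusted p under 0.05, there were 8, 5 and 4 of the 8 in these 3 comparisons, beside 2370, 2356 and 3567 of all 19515 genes. The comparisons of HFHS and of pollutants with ST vehicle share the same 3 ST vehicle arrays. With slide as a fixed block, 1 gene stayed called for pollutants (Arntl) and 0 for HFHS against ST vehicle, where 5 had an unadjusted p under 0.05. Without the 3 arrays of slide 1 the limma model called 0 of the 8 in each comparison, with 7, 3 and 2 at an unadjusted p under 0.05 for pollutants, for HFHS and between HFHS and pollutants. For the slide block and without slide 1, unadjusted counts over all genes are not given here.

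**Figure D1:**
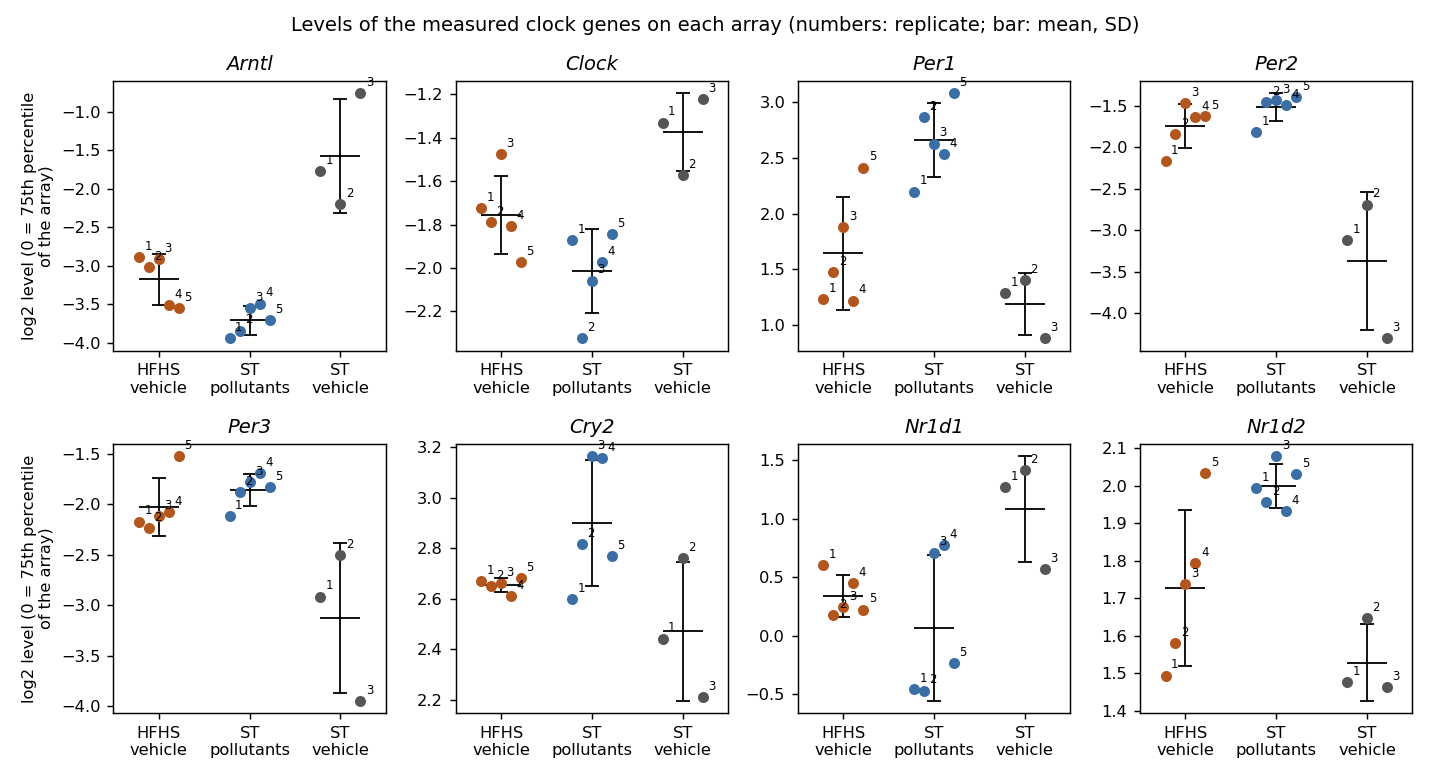
Log2 level of the 8 measured clock genes on each array (y axis, 0 is the 75th percentile of the array) by group (x axis); each point is an array, the number beside it is the replicate, and the bar gives the mean and SD. All 3 ST vehicle arrays lie above the other arrays for Arntl and below them for Per2 and Per3, and for Per1 the pollutant arrays lie above the ST vehicle arrays.

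Arntl, the transcriptional activator of the loop, had the strongest fall among the 8 genes against ST vehicle livers. Its levels were -2.89, -3.02, -2.92, -3.51 and -3.55 in HFHS livers, -3.94, -3.84, -3.55, -3.49 and -3.70 in pollutant livers, and -1.77, -2.20 and -0.76 in ST vehicle livers. Every ST vehicle liver was above every other liver, and the HFHS and pollutant livers overlapped. Arntl averaged -3.18 ± 0.33 in HFHS (SD, n = 5) and -3.70 ± 0.19 in pollutant livers (SD, n = 5), against -1.58 ± 0.74 in ST vehicle livers (SD, n = 3). It fell by 2.13 ± 0.28 (SE) on the log2 scale in pollutant against ST vehicle livers, 4.36-fold, with a limma adjusted p of 0.00636. It fell by 1.60 ± 0.28 in HFHS against ST vehicle livers, 3.03-fold, with a limma adjusted p of 0.0242. Between HFHS and pollutant livers the difference was 0.53 ± 0.24 and did not pass (limma adjusted p = 0.265; 95% interval 0.01 to 1.05).

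The pollutant call of Arntl was kept whichever single array was left out. The HFHS call was lost without HFHS replicate 4 or 5 or without ST vehicle replicate 1 or 3, where the difference lay between -1.70 and -1.19 and the limma adjusted p was up to 0.0774. Without HFHS replicates 3, 4 and 5 it was -1.38, with a limma adjusted p of 0.218. With normexp background correction in place of the processed signal both calls were lost, at -0.73 for HFHS (limma adjusted p = 0.542) and -1.46 for pollutants (limma adjusted p = 0.149) against ST vehicle. On the authors' deposited table of normalized values they were smaller but called, at -1.02 and -1.26 (limma adjusted p = 0.0312 and 0.0103). On slides 1, 2 and 5, which hold all 3 groups, the HFHS array minus the ST vehicle array was -1.12, -0.82 and -2.79, and the pollutant array minus the ST vehicle array was -2.17, -1.64 and -2.94.

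Clock, the partner of ARNTL, moved less. Its levels were -1.73, -1.79, -1.48, -1.81 and -1.97 in HFHS livers, -1.87, -2.32, -2.06, -1.97 and -1.84 in pollutant livers, and -1.33, -1.57 and -1.22 in ST vehicle livers. The pollutant livers were all below the ST vehicle livers, while HFHS replicate 3 lay among the ST vehicle values. Clock fell by 0.64 ± 0.13 in pollutant livers (1.56-fold, limma adjusted p = 0.0483), a call lost when any single array other than HFHS replicate 3 was left out, without HFHS replicates 3, 4 and 5 together (limma adjusted p = 0.0782) and with normexp (limma adjusted p = 0.545). It was at -0.38 ± 0.13 in HFHS against ST vehicle livers, which did not pass (limma adjusted p = 0.258; 95% interval -0.67 to -0.09), and at 0.26 ± 0.12 in HFHS against pollutant livers (limma adjusted p = 0.262). Within slides 1, 2 and 5 it was lower than ST vehicle on 3 of 3 slides in both groups.

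Per2, a repressor whose transcript runs nearly opposite to Arntl through the day, was high where Arntl was low. Its levels were -2.16, -1.83, -1.47, -1.63 and -1.62 in HFHS livers, -1.81, -1.46, -1.43, -1.49 and -1.40 in pollutant livers, and -3.12, -2.69 and -4.30 in ST vehicle livers. Every ST vehicle liver lay below every other liver, and the HFHS and pollutant livers overlapped. Per2 rose by 1.85 ± 0.29 in pollutant livers (3.62-fold, limma adjusted p = 0.0157) and by 1.63 ± 0.29 in HFHS livers (3.09-fold, limma adjusted p = 0.0258) against ST vehicle livers. Between HFHS and pollutant livers it differed by -0.23 ± 0.25, which did not pass (limma adjusted p = 0.753; 95% interval -0.77 to 0.31).

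The pollutant call of Per2 was kept whichever single array was left out (limma adjusted p up to 0.0493). The HFHS call was lost without HFHS replicate 2, 3, 4 or 5 or without ST vehicle replicate 1, where the difference was 1.56 to 1.75. Without HFHS replicates 3, 4 and 5 together it was 1.37, with a limma adjusted p of 0.265. With normexp the HFHS difference was 1.26 and still called (limma adjusted p = 0.0483), while the pollutant difference was 1.27 and not called (limma adjusted p = 0.0656). On the authors' deposited table both were called, at 0.92 and 1.09 for HFHS and pollutants (limma adjusted p = 0.0172 and 0.00740). On slides 1, 2 and 5 the HFHS array was above the ST vehicle array by 0.96, 0.85 and 2.68, and the pollutant array by 1.31, 1.23 and 2.91.

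Per3, the period gene with a smaller role in keeping the rhythm, followed Per2. Its levels were -2.17, -2.24, -2.11, -2.08 and -1.52 in HFHS livers, -2.11, -1.87, -1.78, -1.69 and -1.83 in pollutant livers, and -2.92, -2.51 and -3.95 in ST vehicle livers. As for Per2, all 3 ST vehicle livers were below the other livers. Per3 rose by 1.27 ± 0.27 in pollutant livers (2.41-fold, limma adjusted p = 0.0483). The HFHS difference, 2.15-fold, did not pass (limma adjusted p = 0.0944; 95% interval 0.52 to 1.68 on the log2 scale), and neither did the -0.17 ± 0.23 between HFHS and pollutant livers (limma adjusted p = 0.830). The pollutant call held without HFHS replicate 5 or without ST vehicle replicate 2, and was lost without any of the other 11 arrays, with a limma adjusted p of up to 0.133. It was also lost without HFHS replicates 3, 4 and 5 together (limma adjusted p = 0.0906) and with normexp (0.85, limma adjusted p = 0.379), and on the authors' deposited table it was called at 0.71 (limma adjusted p = 0.0414).

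Per1, a period gene that also answers quickly to hormones and feeding, was higher in pollutant livers than in both other groups. On its brighter probe the levels were 1.23, 1.48, 1.88, 1.22 and 2.41 in HFHS livers, 2.20, 2.87, 2.63, 2.54 and 3.08 in pollutant livers, and 1.29, 1.40 and 0.88 in ST vehicle livers. The pollutant livers were all above the ST vehicle livers, and HFHS replicate 5 reached into the pollutant range. Per1 rose by 1.47 ± 0.27 in pollutant against ST vehicle livers (2.77-fold, limma adjusted p = 0.0302). It fell by 1.02 ± 0.24 in HFHS against pollutant livers (2.02-fold, limma adjusted p = 0.0359), and on 5 of 5 slides the HFHS array minus the pollutant array was negative, -1.39 to -0.67. In HFHS against ST vehicle livers the difference was 0.45 ± 0.27 (limma adjusted p = 0.595; 95% interval -0.14 to 1.05). Within slides 1, 2 and 5 that last difference was -0.06, 0.07 and 1.53. Without HFHS replicate 5 the difference between the groups was 0.26 (limma adjusted p = 0.792).

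The calls of Per1 depended on single arrays. The pollutant call was lost without pollutant replicate 2, 3, 4 or 5 or without any 1 of the 3 ST vehicle arrays (limma adjusted p up to 0.149), with differences of 1.32 to 1.59 over all 13 omissions. The call between HFHS and pollutant livers was lost without HFHS replicate 1, 2, 3 or 4, pollutant replicate 2, 3, 4 or 5, or ST vehicle replicate 1 (limma adjusted p up to 0.0936), with differences of -1.21 to -0.91 over the 13. Without HFHS replicates 3, 4 and 5 together it was kept, and 2 genes were then called between HFHS and pollutant livers, Per1 and Nr1d2.

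A second probe named Per1 in the array files gave another picture. It was designed to a full-length cDNA (AK081813) and lies at chr11:68919895-68919954 on build mm9, upstream of the brighter probe at chr11:68923364-68923423, both on the plus strand. The brighter probe is annotated to the RefSeq transcript NM_011065, and its mean intensity was 2379 to 6427 by group. That of the cDNA probe was 125 to 129. Which part of the gene each probe reads was not examined. The first 30 bases of each are shown because Per1 was called on the brighter probe and not on the cDNA probe.
Per1, brighter probe: gtgttctcagctctaccctctaccaatgac
Per1, cDNA probe: ttagtgtttcagggcagtagaggtggccgg
The cDNA probe had levels of -2.77, -3.38, -3.68, -2.91 and -2.74 in HFHS livers, -2.94, -3.37, -3.44, -2.56 and -2.80 in pollutant livers, and -2.86, -3.49 and -2.68 in ST vehicle livers. The 3 groups overlapped, and the differences were -0.08 ± 0.27 for HFHS and -0.01 ± 0.27 for pollutants against ST vehicle and -0.07 ± 0.23 between HFHS and pollutants (limma adjusted p over all probes 0.982, 0.996 and 0.951). The 2 probes differed in their pollutant change by 1.48, with a two-sided exact permutation p of 0.0357 over 56 splits (smallest possible 0.0179), which became 0.161 after Benjamini-Hochberg adjustment over 9 such tests. With the mean of both probes in place of the brighter one, Per1 was at 0.73 in pollutant against ST vehicle livers and was no longer called (limma adjusted p = 0.0885), nor between HFHS and pollutant livers (-0.54, limma adjusted p = 0.0819).

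**Figure D2:**
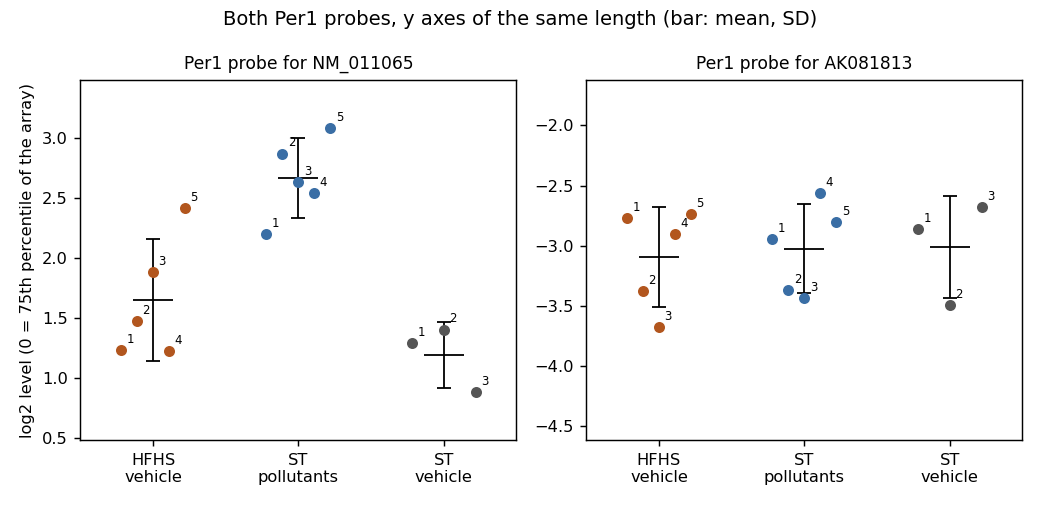
Log2 level (y axes of equal length, 0 is the 75th percentile of the array) of the brighter Per1 probe (left) and of the cDNA probe (right) on each array, by group; points are arrays numbered by replicate, bars are mean and SD. On the brighter probe the pollutant arrays lie above the ST vehicle arrays, and on the cDNA probe the 3 groups overlap.

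Cry2, a repressor that acts with the PER proteins, showed no called change. Its levels on the brighter probe were 2.67, 2.65, 2.66, 2.61 and 2.68 in HFHS livers, 2.60, 2.82, 3.17, 3.16 and 2.77 in pollutant livers, and 2.44, 2.76 and 2.21 in ST vehicle livers. The groups overlapped, the HFHS livers were close together (SD 0.03), and pollutant replicates 3 and 4 were the highest of all. The differences were 0.18 ± 0.14 for HFHS and 0.43 ± 0.14 for pollutants against ST vehicle (limma adjusted p = 0.757 and 0.221; 95% intervals -0.13 to 0.50 and 0.12 to 0.75). A dimmer Cry2 probe gave 0.33 ± 0.23 and 0.24 ± 0.23. Between HFHS and pollutant livers the 2 probes gave -0.25 and 0.09, a gap with an exact permutation p of 0.0159 that became 0.143 after adjustment over the 9 tests.

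Nr1d1, the repressor of Arntl, was split among the pollutant livers and not called. It stood at 0.60, 0.18, 0.25, 0.45 and 0.22 in HFHS livers, at -0.45, -0.47, 0.71, 0.78 and -0.23 in pollutant livers, and at 1.27, 1.41 and 0.57 in ST vehicle livers. The pollutant livers fell into replicates 1, 2 and 5, below all other livers, and replicates 3 and 4, which reached the lowest ST vehicle liver. The differences were -0.74 ± 0.31 for HFHS and -1.02 ± 0.31 for pollutants against ST vehicle, and neither passed (limma adjusted p = 0.346 and 0.170; 95% intervals -1.42 to -0.07 and -1.69 to -0.35). Within slides 1, 2 and 5 both groups were below ST vehicle on 3 of 3 slides, with differences of -1.24 to -0.35 for HFHS and -1.88 to -0.80 for pollutants. Slides 3 and 4, which hold pollutant replicates 3 and 4, hold no ST vehicle array.

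Nr1d2, the close relative of Nr1d1, was just short of a call in pollutant livers. On its brighter probe the levels were 1.49, 1.58, 1.74, 1.79 and 2.03 in HFHS livers, 1.99, 1.96, 2.08, 1.93 and 2.03 in pollutant livers, and 1.48, 1.65 and 1.46 in ST vehicle livers. The pollutant livers were all above the ST vehicle livers, and the HFHS livers spanned both ranges. The difference was 0.47 ± 0.11 for pollutants (limma adjusted p = 0.0727; 95% interval 0.23 to 0.71) and 0.20 ± 0.11 for HFHS (limma adjusted p = 0.543; 95% interval -0.04 to 0.44) against ST vehicle, and neither passed. The pollutant difference was called without HFHS replicates 3, 4 and 5 (limma adjusted p = 0.0476), without HFHS replicate 5 alone (limma adjusted p = 0.0373), with slide as a random block (limma adjusted p = 0.0394) and with an intensity trend (limma adjusted p = 0.0408). It stayed uncalled under the other 23 of the 27 alternatives, with a limma adjusted p of up to 0.316. The other Nr1d2 probe gave 0.37 ± 0.14 and 0.11 ± 0.14. Between HFHS and pollutant livers the brighter probe was at -0.27 ± 0.10 (limma adjusted p = 0.145), and it was called without HFHS replicates 3, 4 and 5 (-0.46, limma adjusted p = 0.0458) and without HFHS replicate 5 alone (-0.35, limma adjusted p = 0.0458). The other 25 of the 27 alternatives left it uncalled (limma adjusted p up to 0.402).

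**Figure D3:**
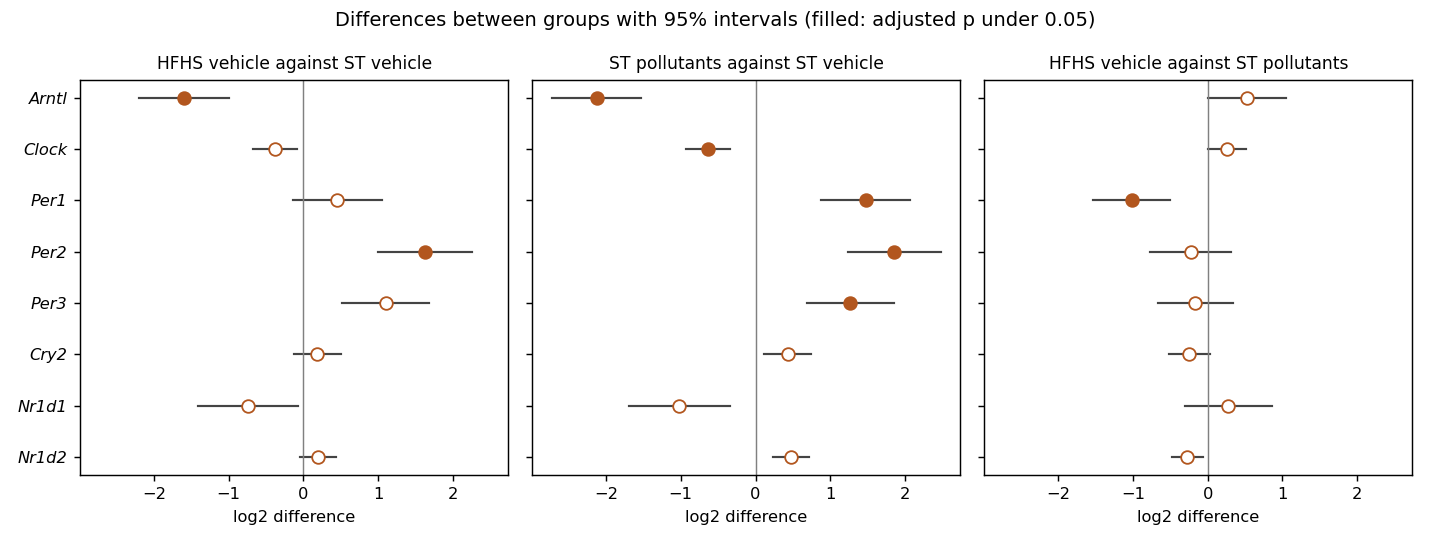
Log2 difference (x axis) of the 8 measured clock genes in each of the 3 comparisons, first-named group minus second, with 95% intervals from the limma model; filled points were called at an adjusted p under 0.05. Arntl and Per2 are filled in both comparisons with ST vehicle, Clock, Per1 and Per3 in the pollutant comparison, and Per1 alone between HFHS and pollutants.

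Over the 8 genes the median absolute log2 difference was 0.60 for HFHS and 1.14 for pollutants against ST vehicle and 0.27 between HFHS and pollutants, beside 0.12, 0.13 and 0.13 over all 19515 genes. The signed medians were 0.19, 0.45 and -0.20, beside -0.02, -0.01 and -0.005. The groups did not overlap for 6 of the 8 genes in pollutant against ST vehicle livers (8.34% of all genes), for 3 of 8 in HFHS against ST vehicle livers (9.16%) and for 0 of 8 between HFHS and pollutant livers (6.97%). The order of the group means was pollutants, HFHS, ST vehicle, high to low, for Per1, Per2, Per3, Cry2 and Nr1d2, and the reverse for Arntl, Clock and Nr1d1. On these probes, the brighter ones where a gene has several, HFHS was thus the middle group for all 8 genes, and its distance from pollutants passed the test for Per1 only. How often HFHS was the middle group over all genes was not counted, and genes of one loop are not independent observations. On the dimmer Cry2 probe HFHS was the highest group (-0.20, against -0.29 in pollutant and -0.53 in ST vehicle livers), and on the Per1 cDNA probe it was the lowest (-3.09, against -3.02 and -3.01), in neither case past the test.

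**Figure D4:**
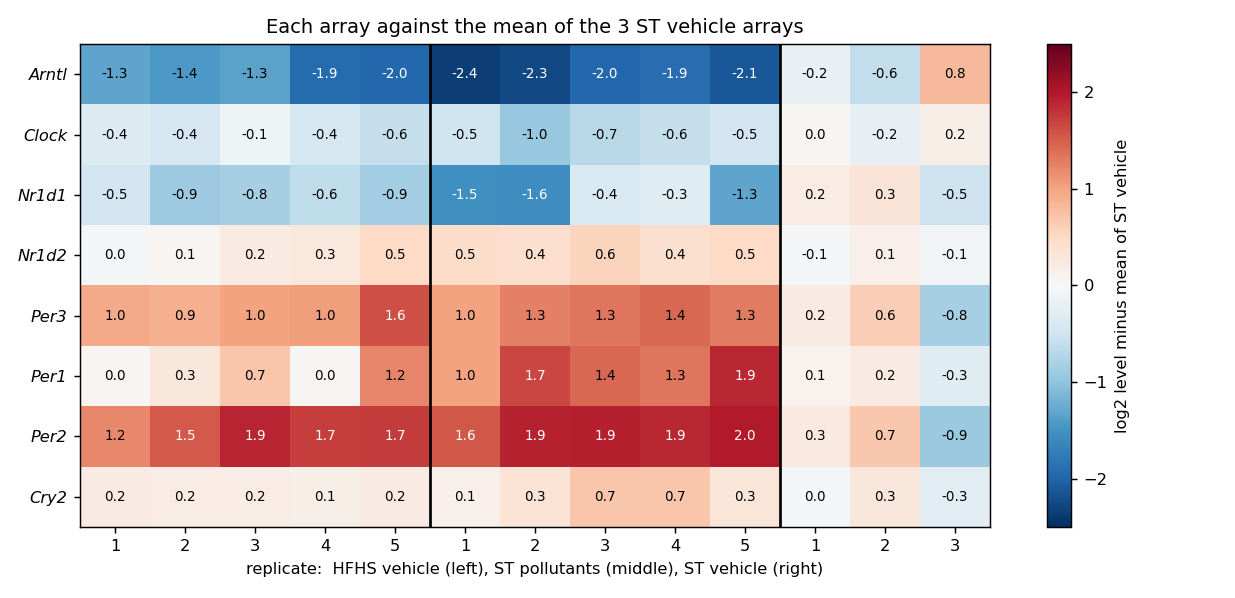
Log2 level of the 8 genes on each array minus the mean of the 3 ST vehicle arrays (colour and number), with arrays in columns by group and replicate and genes in rows. Arntl and Clock are negative and Per2 and Per3 positive on all HFHS and pollutant arrays, and ST vehicle replicate 3 is at 0.82 for Arntl and -0.93 for Per2.

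Array by array, the difference between Per2 and Arntl was used to place each liver, since these 2 transcripts run nearly opposite through the day. Relative to the mean of the ST vehicle arrays, Per2 minus Arntl was 2.52, 2.98, 3.24, 3.67 and 3.72 in HFHS livers, 3.92, 4.18, 3.91, 3.79 and 4.10 in pollutant livers, and 0.45, 1.30 and -1.75 in ST vehicle livers. The 3 groups did not overlap, with the pollutant livers highest and close together and the ST vehicle livers lowest and far apart. Arntl and Per2 each already set the ST vehicle livers apart, in opposite directions. The place of the ST vehicle livers was therefore fixed before the difference was formed. The gap between HFHS (up to 3.72) and pollutant livers (from 3.79) was narrow, and Arntl and Per2 each overlapped between these groups. Among HFHS livers, replicates 3, 4 and 5, which stand apart in acinar markers, were nearest the pollutant livers. The part of acinar cells in this was not tested. How often other pairs of genes separate the groups was not counted. The order of the livers is a description and was not tested. Of the 3 ST vehicle livers, replicate 3 (slide 5) had the highest Arntl and Clock and the lowest of the other 6 genes. Leaving it out brought the pollutant difference of Arntl to -1.72 and that of Per2 to 1.39, and both stayed called.

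Nr1d1 and Cry2 did not follow this order on every array. Nr1d1 was at 0.57 in ST vehicle replicate 3, at 1.27 and 1.41 in ST vehicle replicates 1 and 2, and at 0.18 to 0.60 in the HFHS livers that follow in the order. In the pollutant livers, which come last, it took both its lowest values (-0.47 to -0.23) and values of 0.71 and 0.78. The replicates with those 2 higher values, 3 and 4, were also the 2 highest pollutant livers for Cry2, at 3.17 and 3.16, and for Arntl and Per3, but not for Per1, Per2, Clock or Nr1d2. Nr1d1 and Cry2 thus varied among pollutant livers whose Per2 minus Arntl values all lay between 3.79 and 4.18.

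**Figure D5:**
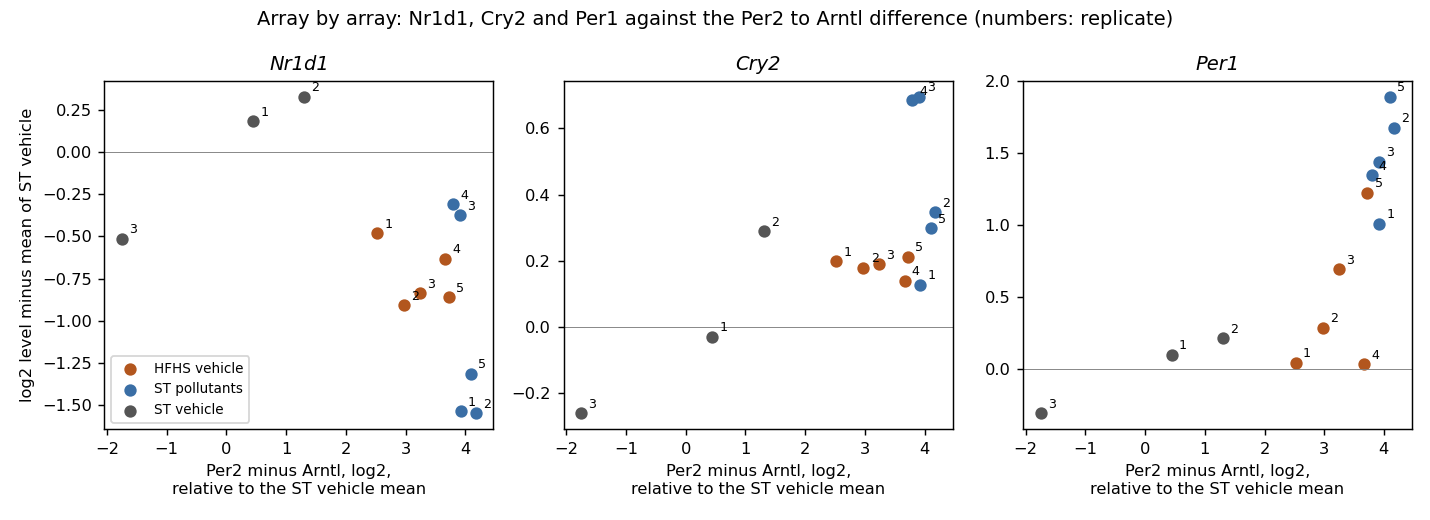
Log2 level of Nr1d1, Cry2 and Per1 minus the ST vehicle mean (y axis) against Per2 minus Arntl relative to the ST vehicle mean (x axis), 1 point per array, numbered by replicate and coloured by group. Pollutant replicates 3 and 4 are high for Nr1d1 and Cry2 at nearly the same x value as the other pollutant arrays.

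Other genes of the clock and its output were taken from a list of 34, of which 33 are on the array and 31 were tested (Rorb and Bhlhe41 did not pass the filter on dim probes). In pollutant against ST vehicle livers 6 of the 31 rose and 0 fell, and in HFHS against ST vehicle livers 1 rose and 0 fell, with 0 called by limma between HFHS and pollutant livers, where 10 had an unadjusted p under 0.05 (the background shares are those given above). Their median difference was 0.12, 0.08 and -0.08. Usp2, a deubiquitinase with a strong daily rhythm in liver, was called in both comparisons with ST vehicle. Its levels were 1.13 to 2.08 in HFHS livers, 1.94 to 2.57 in pollutant livers, and -1.13 to 0.54 in ST vehicle livers, so that both groups lay wholly above ST vehicle. Ciart, a repressor of the ARNTL and CLOCK pair, was at -3.13 to -1.48 in HFHS, -2.86 to -0.80 in pollutant and -4.99 to -3.86 in ST vehicle livers. Ciart was called for pollutants, while its HFHS difference of 1.88 ± 0.49 did not pass (limma adjusted p = 0.127).

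The other 4 called in pollutant livers rose by smaller steps against ST vehicle livers. Nampt, the enzyme that makes NAD in the salvage pathway, rose by 0.98 ± 0.17 (limma adjusted p = 0.0224), and Por, which passes electrons to cytochrome P450 enzymes, by 0.87 ± 0.16 (limma adjusted p = 0.0312). Wee1, a kinase that holds back mitosis, rose by 2.55-fold (limma adjusted p = 0.0245). Tef, an activator that binds D-boxes such as those printed above for Per3, rose by 0.99 ± 0.21 (limma adjusted p = 0.0483). Dbp, another D-box activator, was at 0.83 ± 0.23 in pollutant and 0.78 ± 0.23 in HFHS against ST vehicle livers and passed in neither (limma adjusted p = 0.127 and 0.180).

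Nfil3 and Bhlhe40, which act on D-boxes and E-boxes, were not called. Nfil3, a repressor at D-boxes, was at -0.46 ± 0.23 for pollutants and -0.21 ± 0.23 for HFHS against ST vehicle (limma adjusted p = 0.466 and 0.878), and Bhlhe40, a repressor at E-boxes, at 0.16 ± 0.15 for pollutants and -0.05 ± 0.15 for HFHS (limma adjusted p = 0.783 and 0.983). The Nfil3 and Bhlhe40 levels overlapped across all 3 groups.

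The genes whose levels were most like those of Arntl and Per2 over the 13 arrays were picked by Pearson correlation among 15626 named genes, as a description without a p. The arrays share their groups, so each value is followed by the correlation within groups. The 3 ST vehicle arrays weigh heavily in the within-group values. Their SD was 0.74 for Arntl and 0.84 for Per2, against 0.33 and 0.27 in HFHS and 0.19 and 0.17 in pollutant livers. Closest to Arntl were Clpx (0.967, within groups 0.895), Lrfn3 (0.948 and 0.891), Asap2 (0.946 and 0.830), Id3 (0.939 and 0.60) and Cldn1 (0.934 and 0.772). Most opposite to Arntl were A930033H14Rik (-0.953 and -0.797), Dclre1a (-0.950 and -0.743) and Wee1 (-0.945 and -0.803). Closest to Per2 were Usp2 (0.945 and 0.824), Dock5 (0.939 and 0.762), A930033H14Rik (0.938 and 0.741), Dclre1a (0.935 and 0.702) and Wee1 (0.934 and 0.858). Most opposite to Per2 were Id3 (-0.932 and -0.614), Ypel2 (-0.929 and -0.852) and Stat5b (-0.923 and -0.673). A930033H14Rik, Dclre1a, Wee1 and Id3 stand in both rankings, with opposite signs.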

How the data were processed

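The values used are spot intensity values on a linear scale, the processed signal that Agilent Feature Extraction 11.5.1.1 gave the authors, per the file headers. The deposited table of normalized log2 values for 26082 probes, which the submitters' processing notes tie to limma, served as an alternative only. Its scale was read from the values, and 13 of 13 columns matched their own scanner file best.

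Control spots and outlier spots were left out, the signal was log2-transformed, spots of a probe were averaged, and each array's 75th percentile (782 to 1354 intensity units) was subtracted. Between 62.8% and 69.5% of probes were well above background per array. A probe had to be well above background on all arrays of some group, which 25028 probes were, and the probe of highest mean stood for each of 19515 genes. limma 3.58.1 in R 4.3.3 fitted the 3 groups together, with two-sided tests and Benjamini-Hochberg adjustment, and errors are standard errors. The number of arrays, above all the 3 ST vehicle arrays, limits the precision. The scripts were tested on simulated data. Probe positions are on mm9 and promoters on GRCm38.p6; the 2 builds were not mixed.

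The clock genes, the list of other clock genes, the cell type markers and the tests were chosen with earlier results of these data known. Named genes were all members, other clock genes that were called plus Dbp, Ciart, Nfil3 and Bhlhe40 (1 further gene named by the rule is not reported here), and the 5 most like and 3 most unlike genes for Arntl and for Per2. Differences between probes of a gene were tested by exact permutation of the arrays. Alternatives were quantile normalization, normexp background correction with an offset of 50, filters on dim probes, the choice of probe, slide and replicate blocks, the arrays in the fit and an intensity trend. The labels number the replicates alike across groups, and the correlations of same-numbered deviations are given with the alternatives.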

Additional observations from a re-analysis of the deposited data

Results flagged for a closer look

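In groups of 5 arrays, the gap between the highest or lowest array and its nearest neighbour was compared with the whole range, and 2 of 26 combinations of probe and group were past Dixon's limit of 0.71. Chance alone passes about 1 in 20. Per2 in pollutant replicate 1, at -1.81, was the lowest pollutant liver by a clear gap. Per3 in HFHS replicate 5, at -1.52, was the highest HFHS liver by a clear gap; the mean of the pancreatic acinar markers was 6.88 on that array, the highest of all, and the part of those cells in the value was not tested.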

How the results depend on the processing

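Over 27 alternatives, the difference of each of the 8 genes kept its sign in each of the 3 comparisons, except Per3 between HFHS and pollutants, which was 0.11 with normexp background correction. The counts of called genes (2 for HFHS and 5 for pollutants against ST vehicle, 1 between HFHS and pollutants) moved more. With quantile normalization the pollutant count was 3. With normexp the HFHS count was 1 (Per2, Arntl lost) and the pollutant count 1 (Per1, the other 4 lost). Without a filter on dim probes, and with only the 2 groups compared in the fit, the counts were 0, 2 and 0. With the mean of a gene's probes the pollutant count was 2 and the count between HFHS and pollutants 0. With slide as a fixed block the HFHS and pollutant counts were 0 and 1. Without slide 1 all 3 counts were 0. Without HFHS replicates 3, 4 and 5 the HFHS count was 0, the pollutant count 4 (Clock and Per3 lost, Nr1d2 added) and that between HFHS and pollutants 2. With single arrays left out, the counts ranged from 0 to 2, from 2 to 5 and from 0 to 2. Where limma called 0 genes, 8 genes were tested, or 10 without a filter on dim probes. Of these, 3 to 5 had an unadjusted p under 0.05 for HFHS against ST vehicle, 7 for pollutants against ST vehicle and 2 to 4 between HFHS and pollutants. In the main fit 2356, 2370 and 3567 of all 19515 genes had such a p. The counts over all genes under the alternatives are not given here. Arntl in pollutant livers stayed called under 25 of the 27, Per2 under 22, Per1 under 15, Per3 under 7 and Clock under 5; in HFHS livers Arntl and Per2 were called under 16 each. The cause of these moves was not tested. Without a filter the adjustment ran over 29983 genes, and standard errors changed too (0.276 to 0.281 for Arntl against ST vehicle). Where arrays were left out, the fit held fewer arrays and the differences moved as well.

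The deviations of same-numbered replicates correlated at -0.17 to 0.51, with values under 0.1 in each comparison. ST vehicle replicate 3 is on another slide than the other replicates 3, and its correlations with them were -0.13 and -0.17. All other same-numbered arrays share a slide, with correlations of -0.04 to 0.51. Replicate number and slide thus largely coincide, and the part of the slide was not tested. With the replicate number as a block the counts were 0, 1 and 1 (HFHS and pollutants against ST vehicle, and HFHS against pollutants).

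Over all genes, 134, 192 and 756 were called. The counts were 45, 22 and 292 with normexp, 55, 70 and 361 without a filter, 337, 447 and 1652 with slide as a random block, 1, 3 and 1 without slide 1, and 4, 92 and 289 without HFHS replicates 3, 4 and 5. The first 2 were 84 and 67 with slide as a fixed block, 53 and 44 with the replicate block, 25 and 40 with only the 2 groups compared, and 212 and 295 with an intensity trend. With single arrays left out they ranged from 23 to 140, from 39 to 175 and from 349 to 712. The signal over background limits Cry1 and Npas2, for which no difference is given here. The fit without a filter on dim probes held all 10 members and called neither of these 2. In that fit 9 of the 10 had an unadjusted limma p under 0.05 for pollutants against ST vehicle. Cry1, never well above background, was at -5.92 to -5.16 in pollutant, -7.22 to -6.01 in ST vehicle and -7.23 to -5.74 in HFHS livers.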
